A study of Mus musculus with 14 samples.

Results

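The miR-30 family is a group of 5 mature miRNA names, mmu-miR-30a, mmu-miR-30b, mmu-miR-30c, mmu-miR-30d and mmu-miR-30e (the species prefix is left out in places below), taken here from the 1046 names of a mouse miRNA count table by name alone, with the star names left out. All 5 were listed, and each had reads in every one of the 14 tissue libraries. The tissues were kidney and liver, lung and heart, brain and cerebellum, the oesophagus, stomach, small intestine and colon of the gut, and pancreas, spleen, uterus and ovary. All came from C57BL/6J mice, a common inbred strain, and the labels name no treatment, age or sex. Each tissue was 1 library of RNA pooled over animals, which the labels number as 5 mice at harvest and 10 mice in the pool, so there are no replicates and no test between tissues was possible. Every interval below is a 95% interval for counting error only, since each tissue has 1 library. The reads carry no molecular identifiers, so copies of 1 molecule would count as separate reads, which the intervals do not cover.

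A miRNA finds its target transcripts mainly by pairing through its seed, bases 2 to 8 from the 5′ end, so miRNAs with the same seed are expected to share many targets. The miR-30 family is known as an abundant family of the kidney, where it is studied in podocytes and tubules, and in Xenopus it is needed for formation of the early kidney. Individual members have been studied as repressors of the autophagy gene Beclin 1 (miR-30a, in human cancer cells), of connective tissue growth factor (miR-30c, in rat heart cells) and of the SUMO-conjugating enzyme Ubc9 (miR-30e, in human cells), and miR-30d as a regulator of insulin expression in mouse beta cells.

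The mature sequences show how close the names are and which part they share. They are credited to RefSeq, build GRCm38.p6, and are written 5′ to 3′ with the seed in capitals. Of the 5 members, miR-30a, miR-30c and miR-30e were matched to an entry, each under its 5p name, and miR-30b and miR-30d were not.
miR-30a-5p: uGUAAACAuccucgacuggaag
miR-30c-5p: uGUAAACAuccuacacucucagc
miR-30e-5p: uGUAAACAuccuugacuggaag
miR-384-5p: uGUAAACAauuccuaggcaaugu
Counted from 1 at the 5′ end, miR-30a and miR-30e differed by the single substitution C13U over 22 bases. miR-30a and miR-30c were identical over the first 12 bases and differed at 5 of the 22 compared. miR-384-5p, from a gene on chromosome X, was the only other listed name whose RefSeq sequence had these bases 2 to 8. The sources used here do not give how reads matching several such names were counted, so a read that is short or has a sequencing error could have moved between miR-30a and miR-30e.

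The genes of the family lie in 3 places. In the RefSeq annotation of GRCm38.p6, the gene of miR-30a neighbours that of miR-30c-2 on chromosome 1, the genes of miR-30e and miR-30c-1 lie inside Nfyc, a transcription factor subunit gene, on chromosome 4, and the genes of miR-30b and miR-30d neighbour each other on chromosome 15. The mature miR-30c has the same sequence from either of its genes, so its reads are the sum of a chromosome 1 and a chromosome 4 source. The table names no build, and no coordinates are used with it.

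Library totals ran from 622132 counts in pancreas to 9341000 in small intestine. Values are reads per 1000000 miRNA reads of the library (RPM), and they depend on the scaling because miR-143, a miRNA of smooth muscle and other mesenchymal cells, took between 4.01% (pancreas) and 98.7% (colon) of the reads and 87.1% in ovary. Values were therefore also computed per 1000000 reads other than miR-143. Listed marker miRNAs were highest in their labelled tissue for heart, liver, pancreas, spleen, lung, oesophagus and ovary, and miR-9 and miR-124 were highest in brain and cerebellum. Those of ovary, miR-202-3p and miR-202-5p, were scarce, at 6.17 and 2.65 RPM in a library where 3 reads make 1.32 RPM. The intestinal miR-192, miR-194 and miR-215 were lowest of all libraries in the one labelled colon with totals (19.6, 1.05 and 4.50 RPM), and at places 8, 10 and 10 of 14 when scaled to reads other than miR-143 (1514, 80.9 and 347). They were high in the one labelled uterus (26135, 1545 and 51092 RPM, at places 3, 3 and 2), and both libraries are named by their labels. No markers were listed for stomach, kidney or uterus.

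The family was most abundant in kidney as a share of reads. Median-of-ratios size factors set the typical name equal between libraries, over the 162 names counted in all of them. With these factors the family sum was highest in liver (24236), then heart (23765) and kidney (21731). The 5 members together held 7.31% of the kidney reads (exact binomial interval 7.30–7.33%), 3.91% in lung, 3.04% in cerebellum, 2.28% in brain, 2.24% in liver and 1.95% in heart. They held 0.627% in stomach, 0.535% in small intestine, 0.533% in spleen, 0.507% in the uterus library, 0.409% in pancreas and 0.317% in oesophagus. The lowest shares were 0.111% in ovary and 0.0154% in the library labelled colon, where miR-143 took most reads. Of reads other than miR-143, the family held 10.4% in kidney and 10.0% in lung, then 3.19% in cerebellum, 2.48% in heart, 2.43% in brain and 2.38% in liver. Oesophagus (0.411%) and pancreas (0.426%) were lowest on that scale. In a whole tissue, more cells of a type and more miRNA per cell cannot be told apart.

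mmu-miR-30a was the leading member in 11 of the 14 libraries. Its level was 35191 RPM in kidney, 23888 in lung, 14532 in liver, 11250 in cerebellum, 10437 in brain, 8608 in heart and 2663 in stomach. It was 2516 RPM in pancreas, 2125 in the uterus library, 1823 in small intestine, 1562 in spleen, 1526 in oesophagus, 429.6 in ovary and 76.1 in the library labelled colon. Stomach and pancreas, and spleen and oesophagus, had overlapping Poisson intervals, and all other neighbours in this order were separated by more than counting error. Scaled to reads other than miR-143, lung (61446) stood above kidney (49957), and with median-of-ratios factors liver (15741) was highest, with kidney at 10457. Within its library miR-30a ranked 5 among all names in kidney, 6 in lung and 7 in heart, and 31 in oesophagus, its lowest place.

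mmu-miR-30e stood out most in kidney against the next tissue with totals, with or without miR-143 in them. It reached 25252 RPM in kidney, 3.62 times the level in brain (6967 RPM), followed by heart with 5738, liver with 4896, cerebellum with 4606, lung with 3496 and spleen with 2572. The values in stomach, small intestine and the library labelled uterus were 2342, 1829 and 1220 RPM. Oesophagus had 693.9, pancreas 625.3, ovary 310.5 and the library labelled colon 34.6 RPM, and the intervals of oesophagus and pancreas overlapped. Scaled to reads other than miR-143, kidney (35848) was 3.99 times the next library, lung. With median-of-ratios factors the lead of kidney over heart was 1.07-fold, less than the 1.62-fold lead of miR-30c in kidney over brain.

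mmu-miR-30d was highest in cerebellum. It stood at 13357 RPM in cerebellum, 10435 in lung, 9371 in kidney, 4651 in heart, 3431 in brain and 2612 in liver. Lower values were 1509 RPM in the uterus library, 1291 in small intestine, 868 in pancreas, 828 in spleen, 823 in stomach and 704.6 in oesophagus, with 349.8 in ovary and 37.2 in the library labelled colon. Pancreas, spleen and stomach could not be ordered beyond counting error. Scaled to reads other than miR-143, lung (26841) came before cerebellum (13992).

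The remaining members were scarce. mmu-miR-30c was at 2923 RPM in kidney, 1464 in brain, 986 in cerebellum and 885.8 in lung, and had a median of 299 RPM over the libraries. It had 396 RPM in heart, 340 in stomach, 306 in small intestine, 293 in liver and 276 in spleen, with small intestine, liver and spleen overlapping in that order. Below them stood oesophagus with 185, the uterus library with 175, pancreas with 69.1, ovary with 15 (34 reads) and the library labelled colon with 3.15 RPM. mmu-miR-30b was at 485 RPM in brain, 394 in kidney, 361 in lung and 213 in cerebellum, with a median of 94.7 RPM. Small intestine, stomach, spleen and heart, with 99.1, 97.5, 95.8 and 93.6 RPM of miR-30b, could not be told apart by counting error. Oesophagus had 57.9, the uterus library 45.6, pancreas 12.9, ovary 3.09 and the library labelled colon 2.55 RPM. Its counts were 8 reads in pancreas, 7 in ovary and 17 in the library labelled colon, where the intervals of ovary overlapped with those of each of the others. In liver, where miR-30a ranked 11, miR-30b had 41.1 RPM (36.3–46.4).

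**Figure D1:**
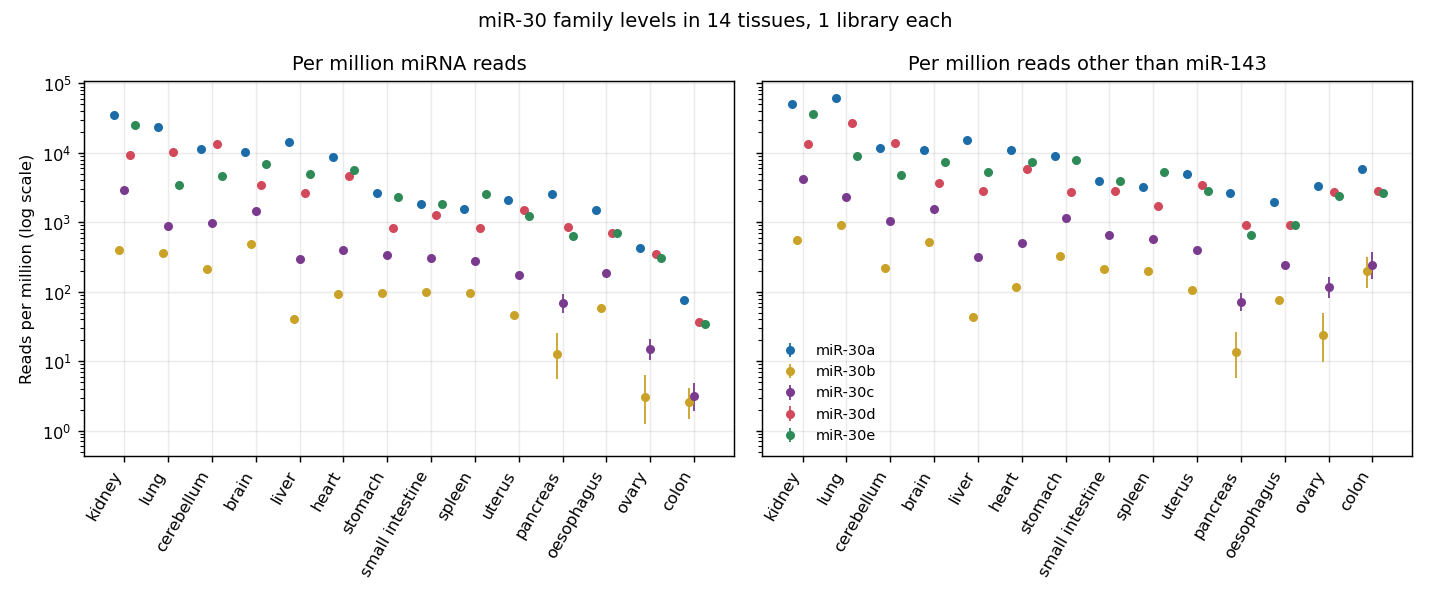
Levels of the 5 members in each tissue library on a log scale, in RPM (left) and scaled to reads other than miR-143 (right). Points are single libraries, bars are 95% Poisson intervals, and tissues are ordered by the summed family level on the left. miR-30a is highest in kidney and lung on both scales, while the colon and ovary libraries rise on the right, where miR-143 is left out of the total.

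Each tissue was then set against the median level over the other 13, with 1 RPM added, and a name was called where it differed at least 4-fold and the higher value reached 100 RPM. In kidney all 5 members were called higher, against 4.97% of the 805 names with a read and 18.0% of the 222 names that reached 100 RPM in some library. The log2 difference from the other tissues was 3.81 for miR-30a, 3.43 for miR-30e, 3.31 for miR-30c, 2.86 for miR-30d and 2.06 for miR-30b, with a median of 3.31 against 1.14 over the 222 names. With totals without miR-143, 4 members were called (3.98% of names) and the medians were 2.89 for the members and 0.56 for the 222 names. With median-of-ratios factors miR-30e alone was called (1.49% of names), at medians of 1.66 and −0.13. All 5 members lay above their median over the other 13 tissues under each of these scalings, though not above every tissue.

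The kidney library also held many reads of the epithelial miR-200 family, 8290 RPM over its 5 members, each of them higher than its median over the remaining 13. In the other libraries that sum ran from 19.2 RPM (labelled colon) to 13738 RPM (small intestine), and small intestine and the library labelled uterus, both above kidney for miR-200, had miR-30 family shares of 0.535% and 0.507%. The part of epithelial content in the kidney result was not tested.

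Other tissues held part of the family. In lung, miR-30a and miR-30d were called higher (log2 3.25 and 3.01) against 5.22% of names, which is 42 of the 222 at 100 RPM. Without miR-143 in the total miR-30b and miR-30c were called too, against 8.07%. With median-of-ratios factors 0 members were called in lung, with miR-30a at 1.37 and miR-30d at 1.44. miR-30e, at 0.58 in lung, was not called under any of the 3 scalings. In brain miR-30a, miR-30b and miR-30c were called higher against 12.4% of names, which is 45.0% of those at 100 RPM, so the members' count lies near the background there. None of these 3 calls in brain held without miR-143 in the total (0.92, 1.39 and 1.63) or with median-of-ratios factors (0.20, 1.83 and 1.20). In cerebellum miR-30a and miR-30d were called against 10.9%. That is 88 of the 222 names at 100 RPM, so the members' count lies near the background there too. With totals 64.4% of the 222 names lay below miR-30d in cerebellum and 54.1% below miR-30a. The median log2 difference there was 1.75 for the members, near the 1.77 over the 222 names that reached 100 RPM. miR-30d (log2 3.37) was called there with each of the 3 scalings, alone against 8.94% of names without miR-143 in the total and alone against 6.96% with median-of-ratios factors. In heart, median-of-ratios factors called miR-30d and miR-30e higher, against 1.74% of names. With these factors all 5 members were above their medians in heart. The median log2 difference was 1.66 for the members and −0.04 over the 222 names, close to kidney (1.66 and −0.13). With totals these medians were 1.29 and −0.53 in heart. Liver had 1.02 and −0.43 with totals and 1.03 and −0.11 with median-of-ratios factors. In liver miR-30a alone was called higher (log2 2.53) against 1.37% of names, which is 11 of the 222 at 100 RPM. It was also called with median-of-ratios factors (1.74%), but not without miR-143 in the total (1.40). In liver miR-30b had a log2 difference of −1.20 and was called lower without miR-143 in the total (−2.16), against 4.47%.

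The lower calls with totals were in 3 libraries. In the library labelled colon 4 members were called lower against 9.07% of names, in ovary 4 against 7.45% and in pancreas miR-30c and miR-30e against 5.09%. Those shares stand for 73, 60 and 41 names, all among the 222 that reached 100 RPM in some library. The typical name was lower in these libraries too. The median log2 difference was −5.31 for the members and −3.49 over the 222 names in the library labelled colon. It was −3.05 and −2.64 in ovary and −2.04 and −1.41 in pancreas. In oesophagus 0 of 805 names were called lower with totals, and all 5 members had negative differences, between −0.72 (miR-30b and miR-30c) and −1.89 (miR-30e). The typical name was higher in oesophagus, with a median of 1.33 over the 222 names against −0.80 for the members. With totals without miR-143, miR-30a and miR-30e were called lower in oesophagus, against 0.745% of names. With median-of-ratios factors miR-30a, miR-30d and miR-30e were called lower there, also against 0.745%. Without miR-143 in the total, pancreas had miR-30b, miR-30c and miR-30e lower (9.19% of names) and ovary miR-30b and miR-30c (5.71%), and the library labelled colon had 0 members called. Median-of-ratios factors gave miR-30c lower in the library labelled colon (0.994%), miR-30d in stomach (0.373%) and miR-30a and miR-30d in spleen (1.61%).

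**Figure D2:**
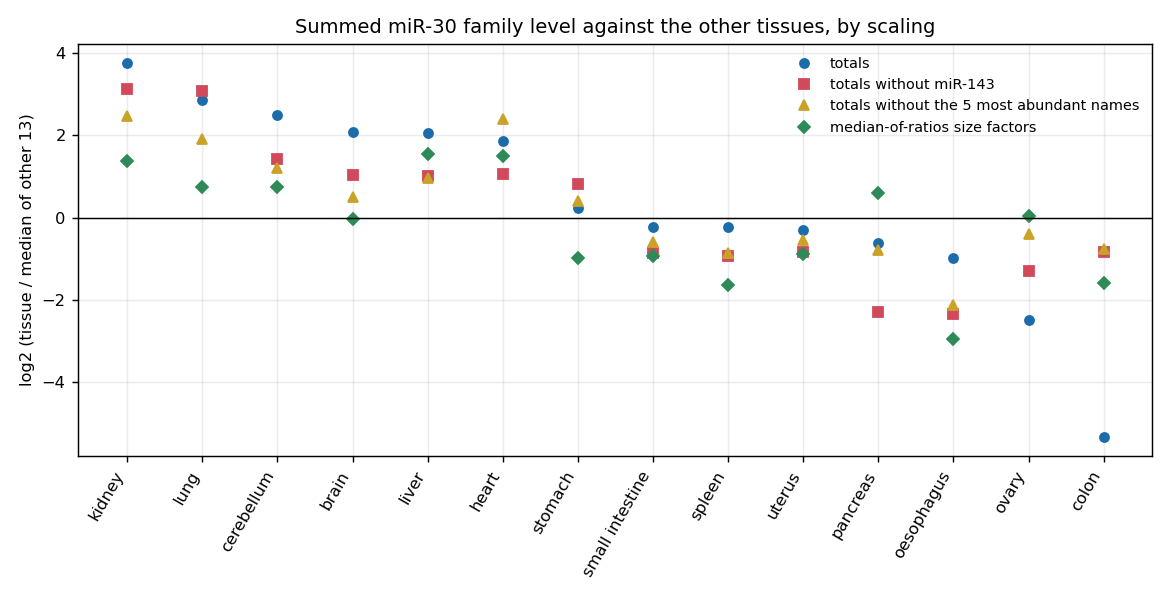
Log2 of the summed family level in each tissue over the median of the other 13 libraries, under 4 ways of scaling the libraries; tissues are in the order of the totals. Kidney, lung, cerebellum, liver and heart are above 0 and oesophagus, colon, small intestine, spleen and uterus below 0 under each scaling, while brain, stomach, pancreas and ovary change sign with median-of-ratios factors.

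The levels compared so far depend on the scaling, but the share of each member within the family does not. miR-30a held between 29.3% (spleen) and 64.9% (liver) of family reads, miR-30e between 8.95% (lung) and 48.2% (spleen), and miR-30d between 11.7% (liver) and 43.9% (cerebellum). miR-30c held 1.31% to 6.42% and miR-30b 0.184% to 2.13%, both lowest in liver and highest in brain. miR-30a, miR-30d and miR-30e together made up 91.4% to 98.5% of the family in every library.

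The leading member differed between tissues. miR-30d led in cerebellum with 43.9% (43.4–44.4%), ahead of miR-30a with 37.0% (36.5–37.5%). miR-30e led in spleen with 48.2% (47.6–48.8%), ahead of miR-30a with 29.3% (28.7–29.8%). In small intestine miR-30e held 34.2% (33.8–34.6%) and miR-30a 34.1% (33.7–34.5%), which overlap. Lung and liver were both rich in miR-30a (61.1% and 64.9%), but lung held 26.7% miR-30d and 8.95% miR-30e, while liver held 11.7% miR-30d and 21.9% miR-30e. Kidney held 48.1% miR-30a, 34.5% miR-30e and 12.8% miR-30d.

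**Figure D3:**
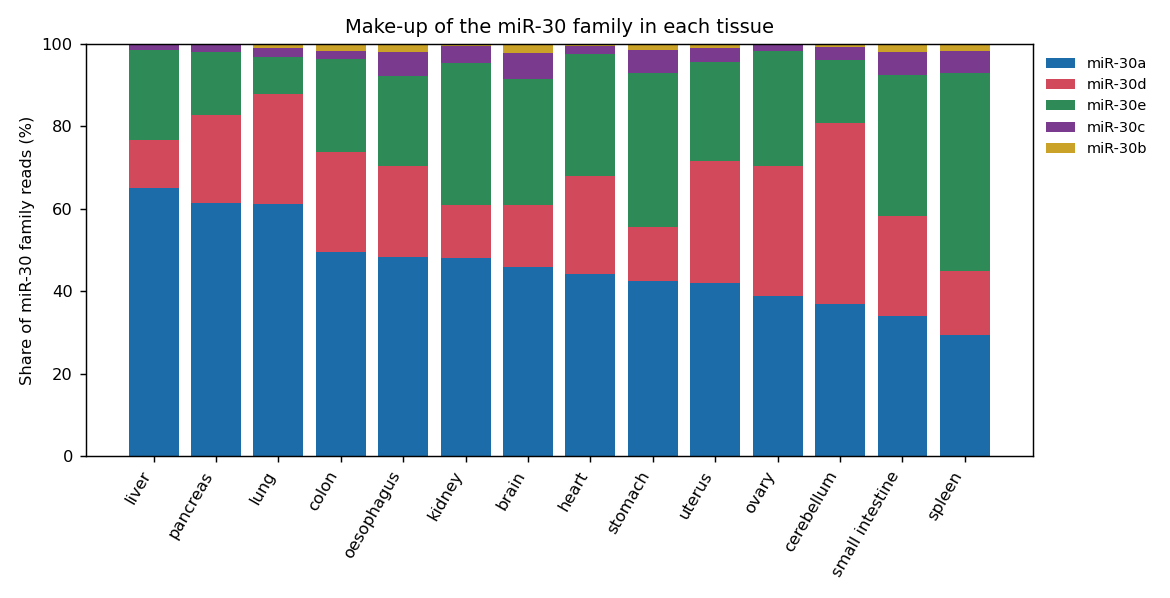
Share of each member among the reads of the 5 members in each library, in percent, with tissues ordered by the share of miR-30a. miR-30a is the largest part in 11 libraries, miR-30e in spleen and small intestine, and miR-30d in cerebellum.

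Ratios between members were compared across tissues for all 10 pairs, as the SD over libraries of the log2 ratio. The steadiest were miR-30b over miR-30c (SD 0.66) and miR-30a over miR-30d (0.71), neither of them encoded at a shared locus. Pairs encoded at a shared locus did not stand together, with 0.77 for miR-30c over miR-30e, 1.03 for miR-30a over miR-30c and 1.31 for miR-30b over miR-30d. The widest of all was miR-30a over miR-30b (1.35). miR-30c comes from a pair of genes, so its ratios mix loci.

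The neighbouring miR-30b and miR-30d changed ratio from tissue to tissue. miR-30b reached 0.141 (0.136–0.147) of miR-30d in brain, 0.118 in stomach and 0.116 in spleen, against 0.0160 (0.0140–0.0181) in cerebellum, 0.0157 in liver and 0.0201 in heart. Brain and cerebellum differed by more than counting error, with 2580 and 242 reads of miR-30b behind the ratio. The lowest value, 0.00883 in ovary, rests on 7 reads of miR-30b. Without the libraries labelled colon, ovary and pancreas the SD of this pair was 1.19, and that of miR-30b over miR-30c was 0.52.

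**Figure D4:**
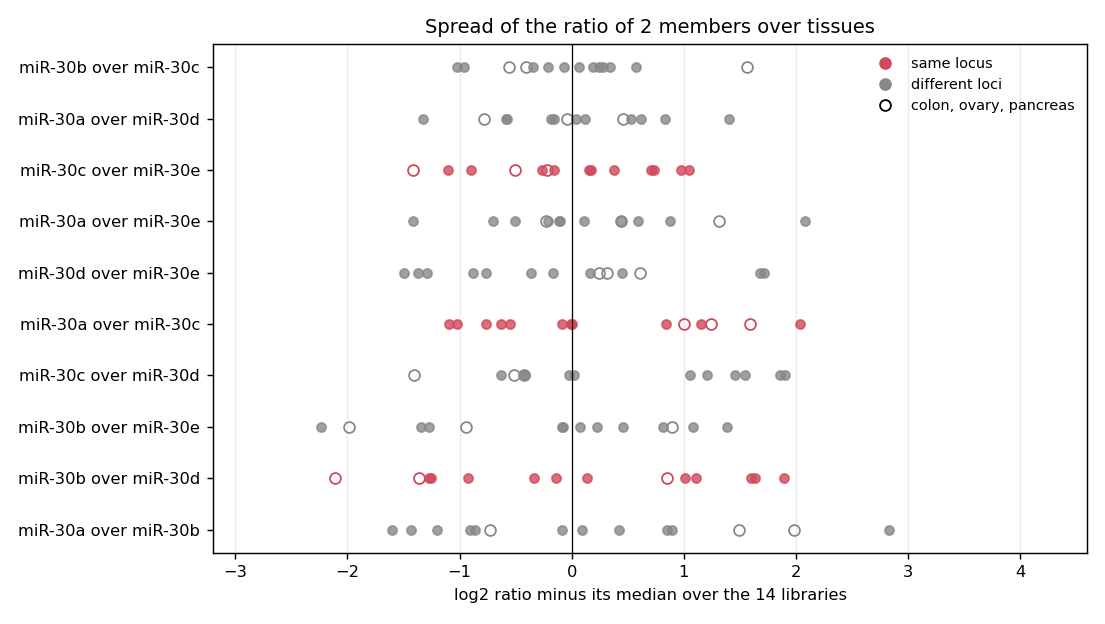
Log2 ratio of 2 members in each library minus its median over the 14 libraries, for the 10 pairs, ordered by SD with the steadiest on top. Red marks pairs with genes at a shared locus, grey the others, and open circles the libraries labelled colon, ovary and pancreas; red pairs lie between SD 0.77 and 1.31, within the grey range of 0.66 to 1.35.

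Across the 14 libraries, Spearman's rho of the RPM values, a description that shares the library totals, was 0.930 for miR-30b and miR-30c, 0.908 for miR-30c and miR-30e, 0.886 for miR-30a and miR-30d and 0.697 for miR-30b and miR-30d. Each member was compared with 221 names that reached 100 RPM in a library, and those most like it outside the family are named. For miR-30a they were miR-30a* (0.868), miR-30c-2* (0.771) and miR-24 (0.745), the star names being arms of chromosome 1 miR-30 hairpins. miR-30b was nearest to miR-218 (0.926), miR-582-3p (0.906) and miR-326 (0.873), and miR-30c to miR-190 (0.877), miR-101a (0.851) and miR-582-3p (0.849). miR-30d was nearest to miR-30a* (0.864), miR-151-3p (0.820) and miR-345-3p (0.798), and miR-30e to miR-3068 (0.873), miR-30c-1* (0.873) and miR-664* (0.864). These lists changed with the scaling: with totals without miR-143, miR-30a and miR-30e each kept 1 of their 3 names, miR-30b and miR-30d each kept 2 and miR-30c kept 0.

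The other arms of the hairpins were not used to choose the members. A star marks the arm taken as the less abundant one in the older naming, and 6 star names belong to the miR-30 hairpins. The RefSeq 3p entries, taken here as the star arms, show that the abundant pair is again nearly identical and that the miR-30c pair can be told apart.
miR-30a-3p: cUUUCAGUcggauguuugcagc
miR-30e-3p: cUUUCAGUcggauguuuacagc
miR-30c-1-3p: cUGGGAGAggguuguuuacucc
miR-30c-2-3p: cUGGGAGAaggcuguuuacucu
The capitals mark bases 2 to 8, which are the same within each pair and differ from the seed of the members. miR-30a-3p and miR-30e-3p differed by G18A, and miR-30c-1-3p and miR-30c-2-3p at 3 bases, G9A, U12C and C22U.

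The arms of the same hairpin did not keep a fixed ratio. Over all libraries miR-30a* had 105117 reads, miR-30e* 58071, miR-30c-2* 14335, miR-30c-1* 1158, miR-30d* 604 and miR-30b* 62. Star names made up 37.8% of the reads of all miR-30 arms in oesophagus and 25.6% in cerebellum, against 6.64% in kidney and 7.92% in pancreas. With totals, miR-30a*, miR-30e* and miR-30c-2* were highest in cerebellum and their partners in kidney. The star arms had 5149, 3991 and 1112 RPM in cerebellum and 3280, 1413 and 472 RPM in kidney. The tissue depended on the scaling for miR-30a*, highest in lung (9615) like miR-30a when scaled to reads other than miR-143, and for miR-30e*, highest in heart (1916) with median-of-ratios factors.

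miR-30e exceeded miR-30e* by 17.9-fold (17.6–18.2) in kidney and 10.0-fold (9.67–10.4) in liver, by 6.28-fold in lung and 3.65-fold in heart, and by only 1.25-fold (1.19–1.31) in oesophagus and 1.15-fold (1.11–1.20) in cerebellum. miR-30a exceeded miR-30a* by 10.7-fold (10.6–10.9) in kidney, 6.39-fold in lung, 2.19-fold (2.12–2.25) in cerebellum and 1.32-fold (1.28–1.37) in oesophagus. Both hairpins were thus nearest to even in the same tissues. Minus its own median over libraries, the log2 arm ratio was −2.34 in oesophagus for each of them, and it stood at −1.61 (miR-30a) and −2.45 (miR-30e) in cerebellum. For the other hairpins with at least 20 reads of both arms in at least 7 libraries, the median of the same measure was 0 over 30 hairpins in oesophagus (middle range −0.88 to 0.44) and −1.10 over 17 in cerebellum (−1.94 to −0.59).

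For miR-30c the arm called star was the more abundant one in 4 libraries. miR-30c-2* had 1262 reads in cerebellum, 1081 in oesophagus, 114 in ovary and 85 in the library labelled colon, against 1119, 971, 34 and 21 reads of miR-30c. The ratio of miR-30c to miR-30c-2* was 0.887 (0.817–0.962) in cerebellum and 0.898 (0.823–0.980) in oesophagus, and it was 0.298 (0.197–0.441) in ovary and 0.247 (0.146–0.402) in the library labelled colon. Minus its own median over libraries, the log2 of this ratio was −1.06 in cerebellum and −1.04 in oesophagus, against −1.10 and 0 for the other hairpins. It was −2.91 in the library labelled colon and −2.64 in ovary, against −2.99 over 3 hairpins and −1.32 over 2. The ratio itself was 12.4 (10.8–14.2) in stomach, 12.2 (11.3–13.3) in brain and 11.4 in small intestine. Because miR-30c also comes from the chromosome 4 gene, this ratio is an upper value for the chromosome 1 hairpin. miR-30c-1*, the star arm of that gene, had its highest level in cerebellum (172 RPM) and no reads in pancreas, where a count of 0 leaves a level of up to 4.82 RPM on a floor of 3 reads.

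**Figure D5:**
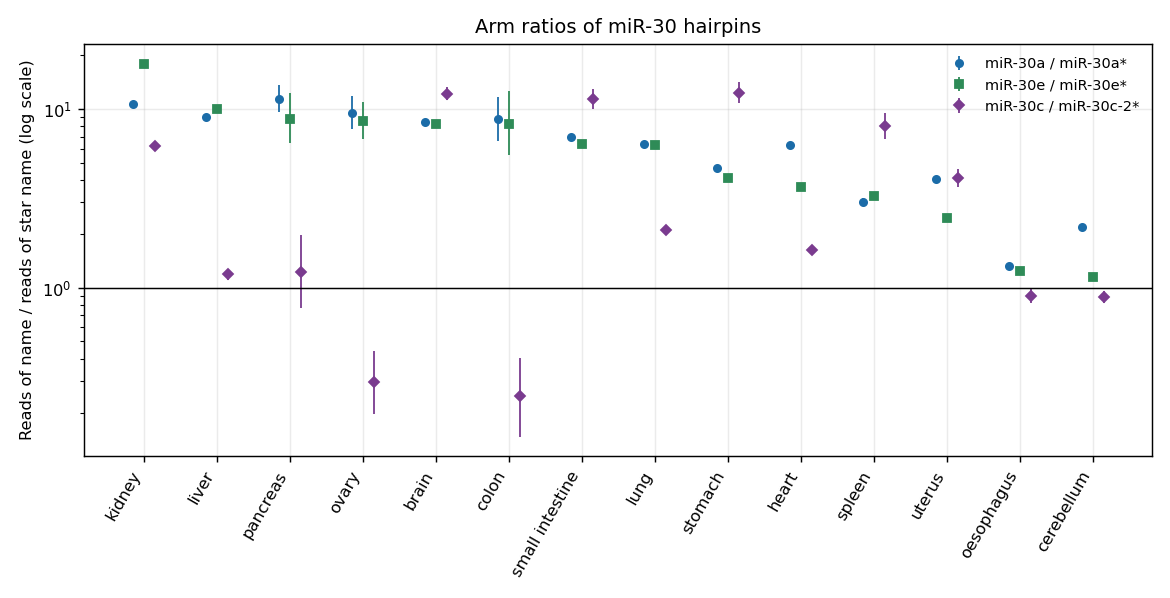
Reads of a member over reads of its star name in each library, on a log scale with 95% intervals for counting error; tissues are ordered by the miR-30e ratio. miR-30a and miR-30e fall close to 1 in oesophagus and cerebellum, and miR-30c lies below miR-30c-2* in cerebellum, oesophagus, ovary and colon.

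The star arms gave a separate count of the chromosome 1 and chromosome 4 hairpins. miR-30a exceeded miR-30e by 6.83-fold in lung, and miR-30a* exceeded miR-30e* by 6.71-fold (6.47–6.96) there. In spleen both ratios were below 1, at 0.607 for the members and 0.659 (0.627–0.694) for the star arms, and liver had 2.97 and 3.28. The intervals of both ratios lay apart in 8 of the 14 libraries, among them kidney (1.39 and 2.32), cerebellum (2.44 and 1.29), the uterus library (1.74 and 1.05) and heart, where they fell on opposite sides of 1 (1.5 and 0.865). Over the 14 libraries the log2 ratios of members and of star arms had a Spearman's rho of 0.785 and a Pearson's r of 0.888, and r was 0.756 without lung and spleen. The third pair of star arms, miR-30c-2* over miR-30c-1*, ran from 1.88 in spleen to 49.1 in oesophagus. These correlations describe tissues of 1 library each, and the part of reads shared between near-identical names was not tested.

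miR-384-5p, the other name with the same seed, had a different distribution. It had 730 reads in brain (137 RPM, 128–148) and 19 in cerebellum (16.7 RPM, 10.1–26.1). In the other libraries it had 0 to 3 reads, with 0 in kidney, liver, lung, oesophagus, spleen, ovary, pancreas and the colon library. On a floor of 3 reads, a count of 0 allows up to 0.325 RPM in kidney and 4.82 RPM in pancreas. In brain it held 137 RPM beside 22784 RPM for the miR-30 family.

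The tissue pairs brain and cerebellum, heart and oesophagus, and kidney and liver were compared member by member. Between brain and cerebellum the summed family was 0.749 times as high in brain (0.740–0.758). miR-30d was 0.257 times as high in brain as in cerebellum (0.251–0.262), and miR-30b 2.28 times (1.99–2.61), miR-30e 1.51 times and miR-30c 1.48 times as high, while miR-30a was nearly level at 0.928. None of the 5 passed the rule of 4-fold and 100 RPM in either direction with totals, against 5.96% of names higher in brain and 3.6% lower. With median-of-ratios factors miR-30d passed it as lower in brain (0.203 times), against 3.23% of names.

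Heart and oesophagus both hold striated muscle, and the family differed widely between them. The sum was 6.15-fold higher in heart (6.05–6.25), and miR-30e, miR-30d and miR-30a were called at 8.27-fold (7.99–8.56), 6.60-fold and 5.64-fold, against 0.745% of names higher in heart, a count and a percentage that were the same without miR-143 in the total. miR-30c and miR-30b were 2.14-fold and 1.62-fold higher. With median-of-ratios factors all 5 were called (2.48% of names), and the sum was 21.5-fold higher.

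Kidney and liver, the libraries with the first and the fifth highest family share, also differed by member. miR-30c was 9.98-fold (9.52–10.5) and miR-30b 9.57-fold (8.44–10.9) higher in kidney, and miR-30e 5.16-fold, all called against 6.09% of names, while miR-30a was 2.42-fold (2.40–2.44) higher. Without miR-143 in the total miR-30d was called too, against 9.07%, and with median-of-ratios factors 0 members were called. The direction depended on the scaling for the sum, which was 3.27-fold higher in kidney with totals and 0.897 times as high with median-of-ratios factors. The same held for miR-30a, 0.664 times as high in kidney with those factors, and miR-30d went from 3.59-fold to 0.984. The order of the members did not depend on the scaling: relative to miR-30a, every other member was higher in kidney than in liver.

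The evenness of the family was set beside other families with a shared seed. The specificity index tau, computed on log2(RPM + 1) where 0 means even levels and 1 a name found in 1 tissue, was 0.241 for miR-30a, 0.242 for miR-30d, 0.278 for miR-30e, 0.338 for miR-30c and 0.347 for miR-30b. The median over the 418 names that reached 10 RPM in any library was 0.640, and 4.78% of them lay below miR-30a. Medians were 0.278 for the miR-30 family, 0.207 for the 9 names of the let-7 family, 0.445 for the 3 miR-29 names and 0.208 for miR-26a and miR-26b, and miR-384-5p had 0.942. With median-of-ratios factors the order of miR-30 (0.172) and let-7 (0.202) was reversed. The range of the summed level, scaled to reads other than miR-143, gave another order. The highest library over the lowest was 25.3-fold for miR-30, 22.0-fold for miR-26, 15.1-fold for miR-29 and 12.9-fold for let-7.

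These families also differed in where they were high. With totals, summed levels were highest in kidney for the miR-30 family, in brain for let-7 (645112 RPM) and miR-29 (8921 RPM), and in lung for miR-26 (13774 RPM). Scaled to reads other than miR-143, let-7 was highest in ovary (872786), and with median-of-ratios factors the miR-30 sum was highest in liver. The median log2 difference in kidney with totals was 3.31 for miR-30, 0.79 for let-7, 2.45 for miR-29 and 1.19 for miR-26, beside 1.14 over the 222 names. With median-of-ratios factors it was 1.66, −1.02, 1.15 and −0.35, beside −0.13, so let-7 and miR-26 changed sign. The SD of log2 ratios between members had a median of 1.03 over 10 pairs for miR-30 and 0.89 over 36 pairs for let-7. It was 1.26 over 3 pairs for miR-29 and 0.89 for the miR-26 pair. Without the libraries labelled colon, ovary and pancreas these values were 0.99, 0.96, 0.71 and 1.01, and miR-29 went from the highest to the lowest. miR-29a led its family and miR-26a its pair in every library, while 2 names took the lead in the let-7 family (let-7c and let-7f) and 3 in the miR-30 family.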

How the data were processed

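The deposited file is a table of read counts for mature miRNA names, 1 column for each of 14 tissues; the values are whole numbers and show no scaling by the authors. Per the labels' protocols, total RNA was extracted with Trizol, pooled over animals and made into libraries by the standard Illumina procedure. For trimming, the aligner, the miRNA release and the build, nothing is given in the sources used here.

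Columns were matched to samples by tissue name. Counts were divided by the library's miRNA total and multiplied by 1000000 (RPM). Levels have exact Poisson, shares exact Clopper-Pearson and ratios exact conditional binomial intervals, at 95%. With 1 library per tissue, a rule of size replaced tests: at least 4-fold with 1 RPM added, and at least 100 RPM in the higher value. Alternatives were totals without miR-143, totals without the 5 most abundant names, median-of-ratios factors over the 162 names counted in all libraries, a pseudocount of 10 RPM, a 2-fold rule and a minimum of 10 RPM. Named miRNAs are the 5 members, their star arms, names with the same seed, the 3 names most like each member, comparison families and tissue markers. The members and lists were chosen with earlier results of these data known, and the comparison of star arm ratios between hairpins and with other hairpins was chosen after the values were seen. Rules and intervals were tested on simulated data. Python 3.11.15, pandas 2.3.3, numpy 2.4.6 and scipy 1.17.1 were used.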

Additional observations from a re-analysis of the deposited data

How the results depend on the processing

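Levels depended on the scaling, while shares within the family and arm ratios do not. The summed family in kidney stood 3.77 (log2) above the median of the other tissues with totals. The difference was 3.13 when miR-143 was left out of them, 2.47 when the 5 most abundant names were and 1.38 with median-of-ratios factors. It was 2.51 without the libraries labelled colon, ovary and pancreas and 3.54 without those labelled colon and uterus. miR-30a in kidney was at 35191 RPM with totals, 49957 without miR-143, 124826 without the 5 names and 10457 with median-of-ratios factors, and its log2 difference of 3.81 became 3.09 without miR-143 and 1.66 with median-of-ratios factors. In kidney 40 names were called higher, 88 at 2-fold, 78 at a minimum of 10 RPM and 12 with median-of-ratios factors, when 1 of the 5 members was called. The median tau of the members was 0.278, and 0.357 with a pseudocount of 10 RPM, 0.217 without miR-143 and 0.172 with median-of-ratios factors. With median-of-ratios factors the summed family changed sign in 4 of 14 tissues, brain (−0.038, against 2.09 with totals), ovary (0.038, against −2.50), stomach (−0.995, against 0.23) and pancreas (0.61, against −0.62). So did 14 of the 70 member values, of which 3 had been called with totals: miR-30d in ovary (0.96), miR-30e in ovary (0.58) and miR-30e in pancreas (0.27). Without miR-143, 6 of the 70 changed sign, of which 1 had been called, miR-30d in the library labelled colon (0.042). The sum in brain over cerebellum was 0.749, 0.763 without miR-143 and 0.592 with median-of-ratios factors, in heart over oesophagus 6.15, 6.04 and 21.5, and in kidney over liver 3.27, 4.35 and 0.897. The cause of these shifts was not tested. The widest range of a member's share, 39.3 percentage points (miR-30e), was 7.06 points where miR-30a, miR-30d and miR-30e were summed against miR-30b and miR-30c. The SD of miR-30b over miR-30d was 1.31, 1.19 without the libraries labelled colon, ovary and pancreas, 1.40 without those labelled colon and uterus, and 1.20 to 1.36 when each library was left out in turn. The name most like miR-30a was miR-30a* (0.868), and miR-193* (0.871) where names at 10 RPM or more were compared. No paired analysis was possible because each tissue has 1 library.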
